A study of Mus musculus with 2 samples.

Results

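The genes described are the ligands and receptors of axon guidance in the eye cup of the newborn mouse. They were chosen by name alone: every counted gene whose symbol begins with Sema, Plxn, Nrp, Epha, Ephb, Efna, Efnb, Slit, Robo or Ntn and goes on with its number (for plexins, a class letter and a number). Of 31053 counted features, 66 met the rule. They comprise 20 semaphorins, 12 plexin symbols, 2 neuropilins, 8 ephrins, 14 Eph receptors, 3 Slits, 4 Robos and 3 netrins (Ntn1, Ntn4 and Ntn5). The plexin symbols include 3 transcripts read from the strand opposite Plxna4 (Plxna4os1, Plxna4os2 and Plxna4os3), which leaves 63 genes that code for a ligand or receptor. All 66 were found by identifier in the GENCODE M21 annotation of GRCm38, and none overlapped another counted gene on its own strand, while 21 overlapped one on the opposite strand.

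Guidance molecules were named for steering growth cones, but the same families set boundaries between cell groups and pattern blood vessels. Semaphorins signal through plexins, and the secreted class 3 members usually need a neuropilin as co-receptor; ephrins and Eph receptors are both bound to the cell surface and signal in both directions; Slits act through Robo receptors; netrins act through receptors such as Dcc, Neo1 and the Unc5 family. In the eye, ephrin-B and EphB genes are classically opposed along the dorsoventral axis of the retina, and several of these families act on retinal and periocular vessels.

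The libraries were made from whole eye cups at P0, without lens, cornea or optic nerve, with 3 eye cups pooled for each genotype. The control carried 2 floxed alleles of Myrf, a membrane-bound transcription factor made in the retinal pigment epithelium (RPE), and is labelled Myrf fl/fl. The mutant, Rx>cre Myrf fl/fl, carried the same floxed alleles and the Rx>cre transgene, which is active in the early eye field, so recombination is directed to the lineage of retina and RPE and not to periocular mesenchyme, vessels or blood. With 1 library per genotype no difference could be tested: every difference below is one between 2 pools, and the 95% intervals (exact Poisson for a level, exact conditional for a ratio) cover counting error only.

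The matrices held 14305 control and 12222 mutant barcodes with medians of 4201 and 4952 unique molecules (UMIs), and 12449 and 10797 cells were kept. Barcodes shared by both libraries numbered 59. In the control, 6401 cells held UMIs of Y-linked genes without Xist and 888 held Xist without Y-linked UMIs, whereas in the mutant these numbers were 1507 and 7611, so the sex makeup of the pools cannot be told apart from genotype. The guidance genes, the RPE and melanocyte markers and Myrf were kept out of the clustering. Of the classes named from marker genes, 12 had at least 50 cells in each library and were compared. No cluster was named as retinal ganglion, horizontal or ciliary margin cells, so such cells may lie in other classes. Although lens was removed, a cluster led by crystallin genes held 262 control and 3 mutant cells, and the 7 lens markers summed to between 83.2 and 304.6 CPM (UMIs scaled to the class total) over the 12 classes of the control and between 0 and 73.3 CPM in the mutant, with the RPE-like class highest in both; the part of lens RNA in the results was not tested. RNA of mesenchyme was also spread more widely in the control: in 8 classes that should lack it (retinal, RPE-like, endothelial-like and blood cells), the 9 mesenchyme markers summed to between 1063 and 2719 CPM in the control and between 86.0 and 308.9 CPM in the mutant, 6.13-fold to 12.7-fold lower. In the RPE-like class, Myrf was counted with 745 UMIs in the control (226 CPM) and 61 in the mutant (26.9 CPM). Where the floxed part lies relative to the counted 3′ end is not given in the sources used here.

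Guidance genes were spread over every tissue of the eye cup, and most kept their leading cell class from one library to the other. At least 50 UMIs over the compared classes were counted for 59 of the 66 genes. For 50 of these the class with the highest level was the same in both libraries. The amacrine-like class led for 12 of them, the endothelial-like class for 10 and the mesenchyme-like class for 8. Retinal progenitor-like, RPE-like and surface epithelium-like cells led for 4 each, photoreceptor-like cells for 3, neurogenic cells for 2, and muscle-like, pericyte-like and white blood-like cells for 1 each. One of the remaining members, Plxna4os3, had no UMI in any cell.

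**Figure D1:**
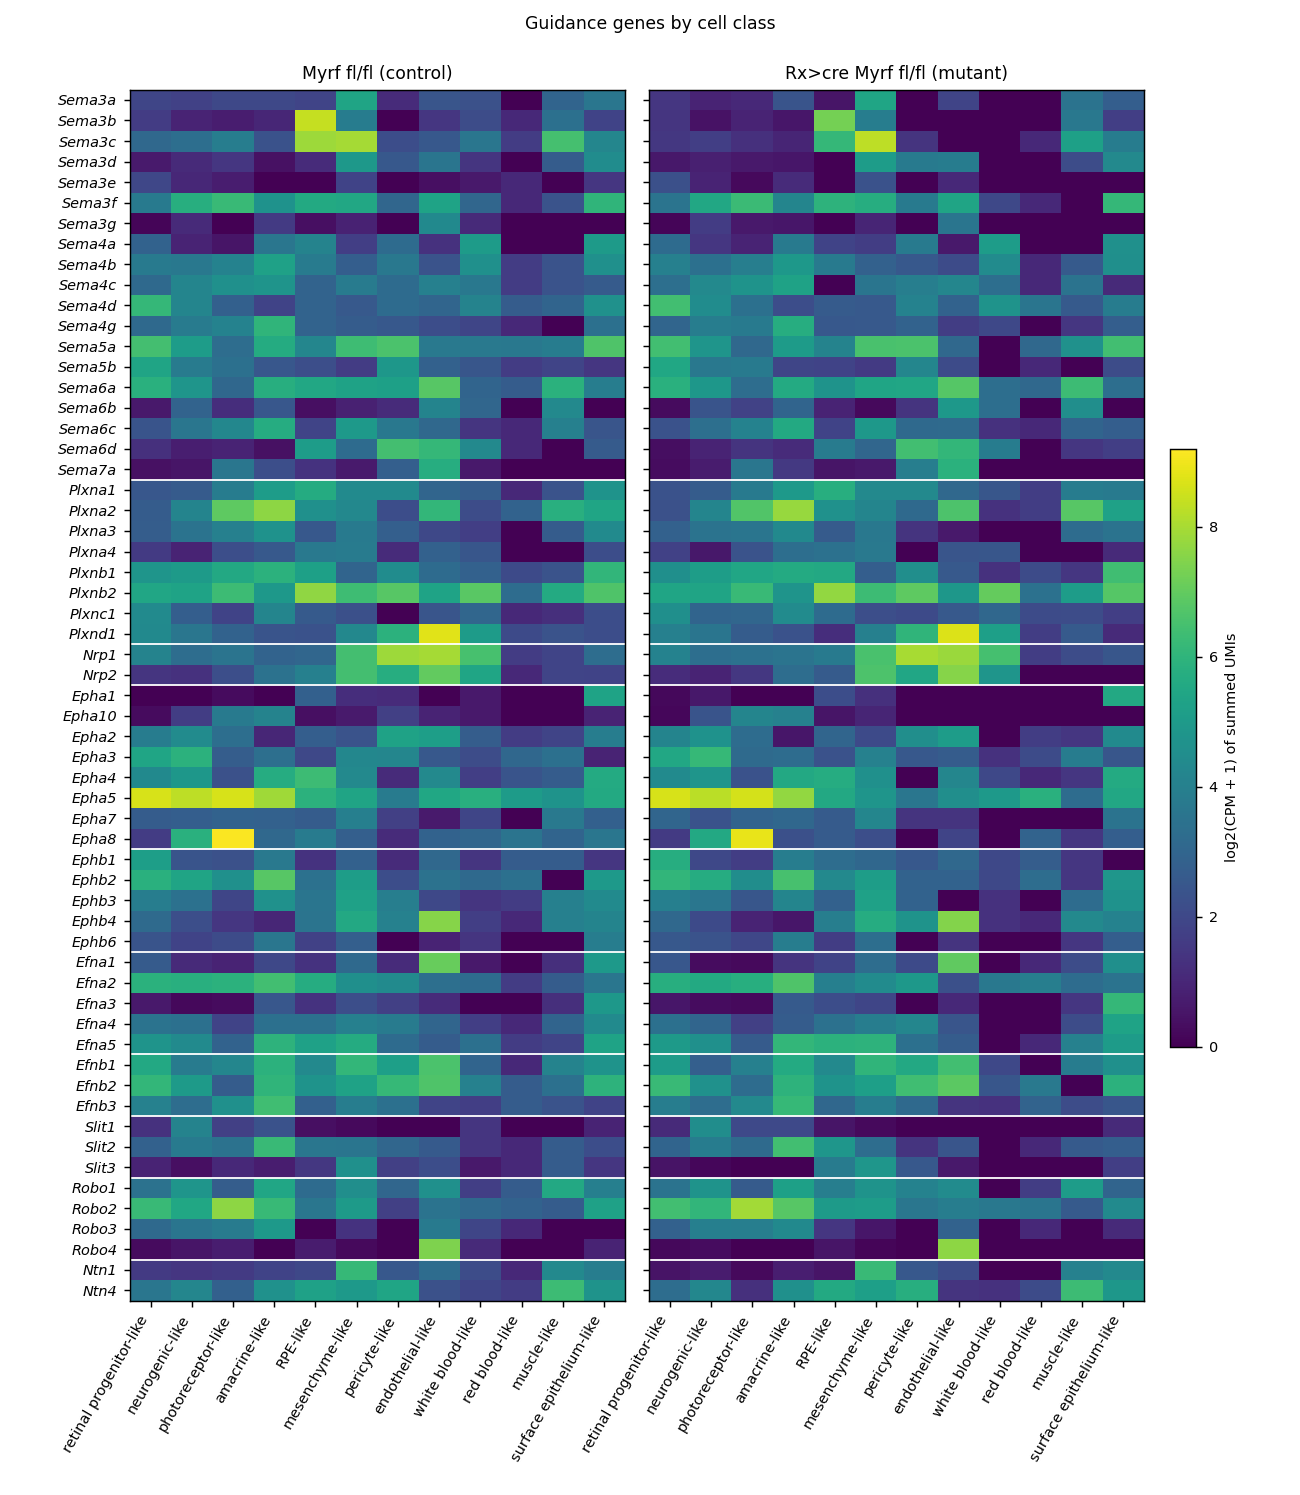
Level of the 59 guidance genes with at least 50 UMIs (rows, grouped by family) in 12 cell classes (columns), as log2(CPM + 1) of summed UMIs, for the control pool (left) and the mutant pool (right). The bright cells, such as Epha8 in photoreceptor-like, Plxnd1 and Robo4 in endothelial-like and Sema3b in RPE-like cells, sit in the same columns of both panels.

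Endothelial-like cells carried members found in few other classes. Robo4, a Robo receptor of vessel walls, was at 170.6 CPM in control and 195.7 CPM in mutant cells, and no other class passed 1.12 CPM in the control. Plxnd1, the vascular receptor for Sema3e, was at 445.5 and 421.7 CPM, with pericyte-like cells next at 59.4 and 63.6 CPM. Ephb4, the receptor of venous endothelium, was at 182.1 and 180.6 CPM. Its partner ligand Efnb2 was highest there too, at 99.6 and 117.9 CPM, though progenitor-like cells also held it at 67.0 and 75.1 CPM. Sema7a, a membrane-anchored semaphorin, was at 52.3 and 58.4 CPM. Of 25 members that passed the filter of 50 UMIs in this class, 0 differed 2-fold between the libraries (2.05% of all genes tested there did so in either direction). Nrp1, the co-receptor of class 3 semaphorins and of vascular endothelial growth factor, was shared with the vessel wall: it stood at 250.4 and 222.2 CPM in endothelial-like cells and at 230.6 and 255.8 CPM in pericyte-like cells. The class was made of a deep cluster and a shallow one of 213 control and 27 mutant cells. In the shallow cluster Epha5, a retinal gene, stood at 157.8 and 220.0 CPM against 24.2 and 14.6 CPM in the deep cluster, and the part of free retinal RNA in that was not tested.

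Mesenchyme-like cells held secreted ligands. Sema3a, a repellent of many axons, led there with 40.4 CPM in control and 41.5 CPM in mutant cells. Ntn1, the founding netrin, was at 70.6 and 73.4 CPM. Slit3 was at 23.6 and 27.5 CPM and Sema3c at 250.5 and 308.4 CPM. Nrp2, a receptor for class 3 semaphorins, stood at 87.1 and 97.2 CPM, second to the endothelial-like class. All 51 members past the filter stayed within 2-fold in this class, where 0.661% of genes tested did not. Pericyte-like cells, the contractile cells around small vessels, were led by Sema6d at 86.8 and 84.2 CPM, and none of 10 members passed 2-fold (background 1.28%). Muscle-like cells were marked by Ntn4, a netrin of basement membranes, at 77.4 and 77.2 CPM. There 2 of 6 members passed 2-fold (background 3.38%): Sema3c with 66 and 21 UMIs, a log2 ratio of -1.29, and Plxna2 with 40 and 65 UMIs, a ratio of 1.03. Sema3c was just under the call in the mean of cells' CPM (-0.97), and Plxna2 with doublets kept (0.74), under trimmed mean scaling (0.95) and with 5 CPM added (0.98).

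Progenitor-like, neurogenic and photoreceptor-like cells shared some members and differed in the level of others. Retinal progenitor-like cells were led by Sema4d, at 68.7 CPM in control and 84.1 CPM in mutant cells, by Sema5b at 40.3 and 43.2 CPM, and by Ephb1 at 35.1 and 52.6 CPM. Epha5 was at 396.6 and 394.9 CPM in these cells and at nearly the same level in photoreceptor-like cells, 397.5 and 392.5 CPM, so that the order of both classes differed between the libraries by less than counting error. Neurogenic cells, which are leaving the cell cycle, were marked by Slit1 and Epha3. Slit1, a repellent ligand, stood at 16.4 and 21.8 CPM, and no other class passed 3.95 CPM in either library. Epha3 stood at 59.7 and 70.0 CPM against 41.9 and 44.3 CPM in progenitor-like cells.

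Photoreceptor-like cells stood out by Epha8, an A-class Eph receptor, at 567.8 CPM in control and 479.9 CPM in mutant cells. The next class, neurogenic cells, had 56.6 and 45.5 CPM. The share of photoreceptor-like cells with an Epha8 UMI was 72.8% in the control and 73.6% in the mutant at median depths of 3222 and 3491 UMIs. In progenitor-like cells, at 4517 and 4733 UMIs, it was 0.944% and 0.898%. When each cell was thinned to 1000 UMIs the share in photoreceptor-like cells was 40.4% and 37.9%. Robo2, a Slit receptor, was also highest in this class, at 197.1 and 239.1 CPM.

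The photoreceptor-like clusters differed among themselves in these genes, which had no part in forming them. The cluster led by the cone genes Pde6h and Opn1sw and that led by the rod genes Nr2e3 and Pdc were set side by side. Epha10, an Eph receptor without kinase activity, was at 34.6 CPM in the cone cluster and 2.99 CPM in the rod cluster of the control, and at 41.3 and 6.21 CPM in the mutant. Robo2 was higher in the cone cluster as well, at 133.3 against 73.8 CPM in the control and 158.2 against 96.9 CPM in the mutant. Plxna2, a receptor for class 6 semaphorins, ran the other way, with 46.6 CPM in the cone and 102.7 CPM in the rod cluster of the control and 33.4 and 96.2 CPM in the mutant. Epha8 varied less, with 557.1 and 464.7 CPM in the control and 483.4 and 407.9 CPM in the mutant.

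Amacrine-like cells, the inhibitory interneurons of the inner retina, led for the largest number of members. Plxna2 was at 199.6 and 220.2 CPM in the control and mutant and Slit2, a ligand of Robo receptors, at 73.7 and 83.9 CPM. Ephb2, a receptor of B-class ephrins, stood at 112.5 and 90.4 CPM. Their own clusters split these genes: in the cluster led by Crabp1 and Mapt, Plxna2 was at 116.7 and 158.9 CPM and Slit2 at 37.3 and 55.4 CPM, while in the cluster led by Calb2 they stood at 281.3 and 315.0 CPM and at 105.1 and 125.1 CPM. Robo1 had the reverse order, 67.7 and 53.7 CPM in the former and 14.2 and 19.8 CPM in the latter. Of 37 members past the filter in the whole class, 0 differed 2-fold between genotypes (background 1.01%).

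Surface epithelium-like cells were marked by Epha1, an Eph receptor of epithelia, at 39.4 and 46.5 CPM, and by Efna3. Efna3 was the 1 member of 18 that passed 2-fold there (background 2.93%), with 33 UMIs in the control (28.9 CPM) and 61 in the mutant (69.2 CPM), a log2 ratio of 1.23. Within sexes it did not hold the call: the ratio was 0.91 in cells with Xist only (9 and 57 UMIs) and -0.67 in cells with Y-linked UMIs only (23 and 2 UMIs, under the filter). White blood-like cells held Sema4a, a semaphorin of immune cells, at 31.9 and 32.7 CPM. Surface epithelium-like cells were next for this gene, at 31.5 and 23.8 CPM. In white blood-like cells 0 of 7 members passed 2-fold (background 3.14%). Red blood-like cells had a single member past the filter, Epha5, which stayed within 2-fold (background 6.09%).

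By number, more members passed 2-fold between the genotypes in RPE-like cells than in any other class, 9 of 30 past the filter. In muscle-like cells 2 of 6 did so. All genes also passed 2-fold more often in RPE-like cells (4.32% lower and 1.73% higher) than in the retinal classes (0.899% to 1.07% in either direction). Ligands made up 15 of the 30 members past the filter in RPE-like cells and 5 of the 7 that were lower in the mutant. Receptors made up the other 15 and the other 2, and ligands were not tested against receptors. The class counted 514 control and 194 mutant cells in a shallow and a deep cluster that differed in share: the shallow one held 369 and 99 of them and the deep one 145 and 95, so the class medians were 2464 and 10410 UMIs. The 12 RPE markers summed to 29480 CPM in control and 19580 CPM in mutant cells. Rpe65, the isomerase of the visual cycle and a mature RPE marker, was at 0 in the mutant. The 8 melanocyte markers summed to 22430 and 17440 CPM, 3 of them being shared with the RPE list. The 5 others summed to 1484 and 1136 CPM, and Mlana made up most of it. Ednrb was at 132.3 and 71.1 CPM and Kit at 49.1 and 47.7 CPM. Sox10, a factor of neural crest, had 259 UMIs in the control (78.6 CPM) and 11 in the mutant (4.86 CPM). Pax3 had 2 and 0 UMIs. The study reports SOX10 protein in control RPE as well as melanocytes, and its absence from mutant RPE cells. The part of melanocyte RNA in the results below was not tested. The mesenchyme list summed to 2719 and 308.9 CPM, the progenitor list to 1405 and 1678 CPM and the photoreceptor list to 757 and 635 CPM. The ciliary margin list summed to 264.5 and 60.9 CPM. No cluster was named as ciliary margin, and the part of its cells or RNA in the results below was not tested. Of the 66 members, 30 had at least 50 UMIs in the class. The call was a log2 ratio, with 1 CPM added to each side, of at least 1 in either direction. By it 7 members were lower in the mutant (4.32% of the 8939 genes tested were) and 2 were higher (1.73% were). The median over the 30 members was 0.01 on the log2 scale and that over all genes tested -0.01.

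Semaphorins gave 4 of the 7. Sema3b, a secreted class 3 semaphorin, was the most RPE-restricted member among the 12 compared classes. It stood at 336.1 CPM in the control (1108 UMIs) and 152.7 CPM in the mutant (346 UMIs). Mesenchyme-like cells, next in order among these classes, had 13.4 and 13.9 CPM. Melanocyte-like cells, too few to be compared, held more Sema3b than mesenchyme-like cells, as given at the end. The log2 ratio of Sema3b in RPE-like cells was -1.13 (-1.32 to -0.96). It was just under the call in the mean of cells' CPM (-0.94) and at up to 2000 UMIs per cell (-0.98 on 56 and 5 UMIs). Sema3c, another secreted class 3 ligand, went from 231.5 CPM (763 UMIs) to 68.4 CPM (155 UMIs), a log2 ratio of -1.74 (-2.02 to -1.51). The study lists both genes among those lower in the mutant RPE of these same libraries, so their direction here is not independent evidence. Sema4a, a transmembrane semaphorin with known roles in RPE and photoreceptor upkeep, went from 54 UMIs (16.4 CPM) to 6 (2.65 CPM). Its log2 ratio was -2.25 (-4.14 to -1.41). Sema6d, a transmembrane class 6 ligand, went from 109 UMIs (33.1 CPM) to 30 (13.2 CPM), a ratio of -1.26 (-1.96 to -0.73). The 4 other semaphorins past the filter stayed between -0.82 (Sema6a) and 0.35 (Sema3f).

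Shares of cells did not show the same picture until depth was matched. In the RPE-like class 48.1% of control cells and 52.6% of mutant cells held a Sema3b UMI, at the unequal median depths above. Thinned to 1000 UMIs, with 409 control and 167 mutant cells deep enough, the shares were 24.9% and 13.2%. In progenitor-like cells, taken as a class low in the gene, the thinned shares were 0.214% and 0.307%. For Sema3c the thinned shares were 18.1% and 4.79% in RPE-like cells and 0.902% and 0.143% in progenitor-like cells.

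Receptors for these ligands mostly stayed within 2-fold. Plxnb2, a B-class plexin and the most counted receptor of the class, was at 202.0 CPM in the control (666 UMIs) and 207.0 CPM in the mutant (469 UMIs), and its log2 ratio of 0.03 had an interval of -0.14 to 0.21. Plxna1, through which class 3 semaphorins signal with a neuropilin, was at 50.1 and 53.4 CPM. Both plexins were highest in RPE-like cells among the 12 classes in each library. Plxnb1 and Plxna2 had log2 ratios of 0.31 and 0.05. Of 7 plexins and neuropilins past the filter, 1 passed 2-fold: Nrp2 went from 50 UMIs (15.2 CPM) to 12 (5.30 CPM), a ratio of -1.36 (-2.56 to -0.59). Nrp2 is also a mesenchyme gene. It had 11.96 UMIs per 1000 Col1a1 UMIs in control RPE-like cells against 3.52 in mesenchyme-like cells, and with mesenchyme RNA taken off in proportion to Col1a1 its ratio was -0.997 and its count under the filter. With 5 CPM added its ratio was -0.97. Nrp1 was low in the class, at 7.28 and 12.8 CPM.

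The Eph system split between its members. Efna2, an A-class ephrin tethered to the membrane by a lipid anchor, went from 168 UMIs (51.0 CPM) to 33 (14.6 CPM), a log2 ratio of -1.74 (-2.39 to -1.26). Efna5, of the same class, went from 37.9 to 59.1 CPM, a ratio of 0.63 (0.28 to 1.01) that stayed under the call. Efnb1 and Efnb2 had ratios of -0.01 and 0.02. Among receptors, Epha8 went from 44 UMIs (13.4 CPM) to 12 (5.30 CPM), a ratio of -1.19 (-2.39 to -0.39). The call ended with doublets kept, at -0.50 on 51 and 29 UMIs, and with 5 CPM added, at -0.83, and the ratio was -0.47 at up to 5% mitochondrial UMIs, on 15 and 7. These levels are far under those of photoreceptor-like cells, and the part of photoreceptor RNA in them was not tested. Epha4, whose highest class was RPE-like in both libraries, stood at 77.4 and 51.2 CPM, a ratio of -0.59 (-0.93 to -0.27).

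Slit2 and Robo2, a ligand and a receptor of one pathway, were the 2 members above the call. Slit2 went from 37 UMIs (11.2 CPM) to 63 (27.8 CPM), a log2 ratio of 1.24 (0.70 to 1.94). Robo2 went from 37 UMIs (11.2 CPM) to 71 (31.3 CPM), a ratio of 1.40 (0.89 to 2.10). On the same UMIs the mean of cells' CPM gave Robo2 a ratio of 0.51, under the call. Both are genes of the retina as well. The amacrine markers, the class with the highest Slit2, summed to 197.5 CPM in control and 65.8 CPM in mutant RPE-like cells. The photoreceptor list, the class with the highest Robo2, was also lower in the mutant and the progenitor list higher, as given above, and progenitor-like cells held Robo2 at 74.0 CPM in the control, next after photoreceptor-like cells. The retinal ganglion list summed to 58.6 and 79.0 CPM. The part of retinal RNA in these differences was not tested. Slit3, chosen after its values were seen and under the filter, had 6 UMIs in the control (1.82 CPM) and 30 in the mutant (13.2 CPM). Robo1 was at 8.19 and 14.1 CPM and Ntn4 at 37.0 and 47.2 CPM, both within 2-fold.

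**Figure D2:**
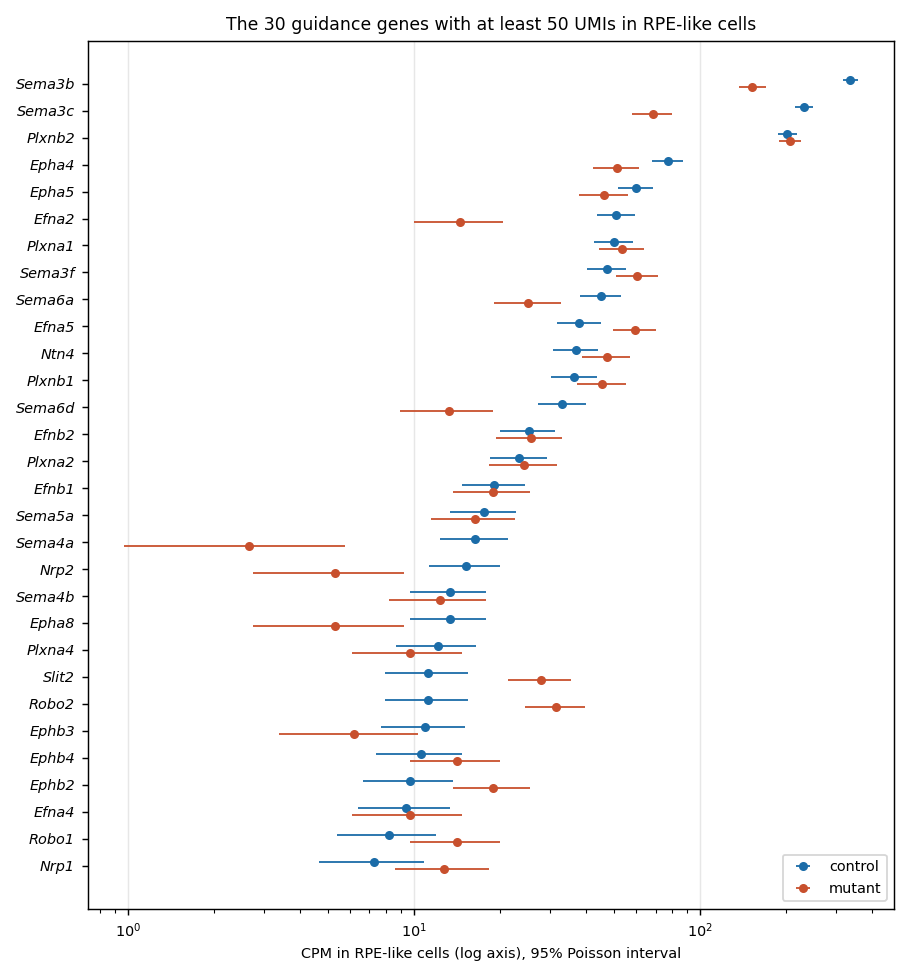
Level of the 30 guidance genes with at least 50 UMIs in RPE-like cells, in CPM on a log axis, in the control (blue) and mutant pool (red), with bars for the 95% Poisson interval of the count. Sema3b, Sema3c, Efna2, Sema6d, Sema4a, Nrp2 and Epha8 lie lower in the mutant, Slit2 and Robo2 higher, and Plxnb2 and Plxna1 overlap.

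The RPE-like class was also split into its 2 clusters, without a test of the difference between them. In the deep cluster Sema3b was at 419.6 and 180.0 CPM, Sema3c at 306.1 and 90.0 CPM and Efna2 at 54.4 and 14.1 CPM. In the shallow cluster these levels were 171.9 and 70.7 CPM, 84.6 and 3.54 CPM, and 44.1 and 15.9 CPM. These 3 were the members with at least 50 UMIs that were past 2-fold in both clusters. Sema4a had log2 ratios of -2.19 in the deep cluster and -2.56 in the shallow one, on 37 and 5 UMIs in the former and 17 and 1 in the latter, too few for the filter. For the other 5 genes the shallow cluster held too few UMIs for the filter, and so did the deep cluster for Nrp2 (29 and 3) and Epha8 (29 and 8). Their ratios had the same sign in both clusters: Nrp2 was at -2.37 in the deep and -0.24 in the shallow cluster, Sema6d at -1.52 and -0.51, Epha8 at -1.32 and -0.85, Robo2 at 2.04 and 0.94, and Slit2 at 1.40 and 0.92. Sema6a, within 2-fold in the whole class, went from 97 to 35 UMIs in the deep cluster, a ratio of -1.07 that passed the call. Within sexes, cells with Xist only gave Sema3b and Sema3c ratios of -1.23 and -1.89. Cells with Y-linked UMIs only gave -1.003 and -1.95. Efna2 had ratios of -1.43 and -1.80, and Sema4a had -1.52 (11 and 5 UMIs) and -4.31 (27 and 0 UMIs). Other members were under 2-fold in one of the groups: in cells with Xist only Slit2 was at 0.88 and Epha8 at -0.79, and in cells with Y-linked UMIs only Nrp2 was at -0.41, Sema6d at -0.73 and Robo2 at 0.53, against 2.61 for Robo2 in the former.

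**Figure D3:**
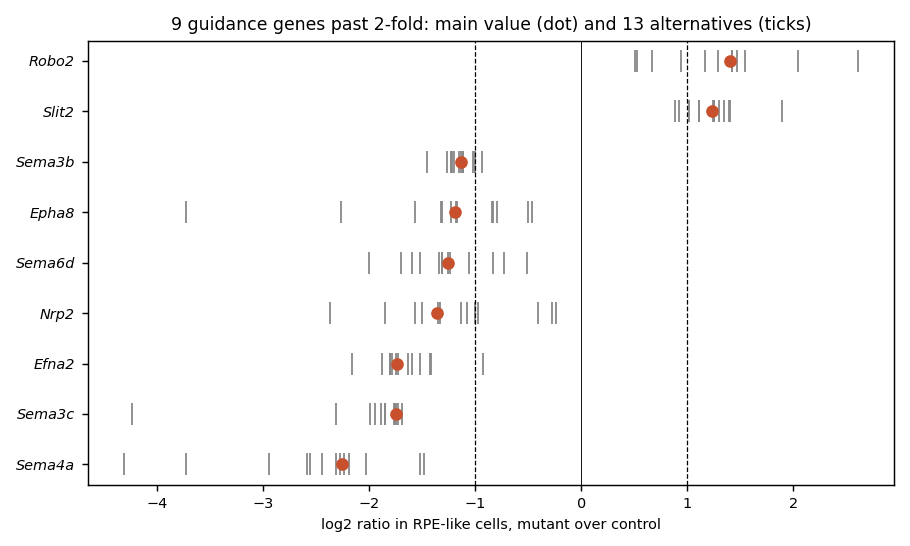
Log2 ratio of mutant over control in RPE-like cells for the 9 guidance genes past 2-fold: the dot is the value as reported and the ticks are the 13 alternative settings that can change these values, leaving out the limit of 2000 UMIs per cell. The ticks of Sema3c and Sema4a lie past the dashed 2-fold line, those of Sema4a on few UMIs (5 and 0 when cells were thinned), and the other 7 genes each have ticks inside it.

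Promoters of genes lower in the RPE-like class are shown because these genes were lower together in the mutant pool. RefSeq windows (GRCm38.p6) of 250 bases before to 50 after a start were at hand for 6 of the 7, Sema3b having no entry, with 10 windows in all. Both strands were searched for CTGGNAC, a core of the MYRF site, and for ACAAAG, a site of SOX factors; these motifs did not overlap each other in the windows shown. The first start of Sema4a held CTGGNAC beginning 23 bases before it, and Sema3c held ACAAAG beginning at base 6 after the start. Efna2 held ACAAAG beginning 205 and 10 bases before its start. Capitals mark the motifs, on either strand.
Sema4a, chr3:88461133-88461432, minus strand: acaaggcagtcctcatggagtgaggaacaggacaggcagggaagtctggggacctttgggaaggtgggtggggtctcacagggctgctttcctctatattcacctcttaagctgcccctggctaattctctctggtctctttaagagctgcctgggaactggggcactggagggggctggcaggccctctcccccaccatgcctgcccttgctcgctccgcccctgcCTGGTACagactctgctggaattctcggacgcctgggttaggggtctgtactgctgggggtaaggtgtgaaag
Sema3c, chr5:17574566-17574865, plus strand: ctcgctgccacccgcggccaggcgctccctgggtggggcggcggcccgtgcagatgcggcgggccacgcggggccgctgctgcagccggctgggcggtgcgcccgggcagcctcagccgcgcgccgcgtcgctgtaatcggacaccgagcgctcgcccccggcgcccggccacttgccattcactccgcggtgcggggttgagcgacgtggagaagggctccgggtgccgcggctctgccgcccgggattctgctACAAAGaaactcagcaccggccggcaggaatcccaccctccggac
Efna2, chr10:80179232-80179531, plus strand: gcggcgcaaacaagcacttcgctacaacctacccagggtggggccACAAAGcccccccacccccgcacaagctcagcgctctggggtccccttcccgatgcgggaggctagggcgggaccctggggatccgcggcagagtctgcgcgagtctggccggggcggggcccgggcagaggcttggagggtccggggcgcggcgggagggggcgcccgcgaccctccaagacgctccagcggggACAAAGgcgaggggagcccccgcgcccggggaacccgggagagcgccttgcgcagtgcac
Of the 6 genes, 1 had CTGGNAC in a window and 3 had ACAAAG, Sema6d being the other one. Of the 27025 genes with a window, 21.42% had CTGGNAC and 21.02% had ACAAAG in at least 1, and of their 32851 windows 19.3% and 18.7% did, so either motif is common in windows of this length.

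Partner genes of the same pathways, a list of 43 receptors, co-receptors and cytoplasmic effectors, gave 20 genes past the filter in RPE-like cells. Of these 4 were lower and 0 higher in the mutant; with doublets kept 2 of 22 were lower, and 1 was higher in the mean of cells' CPM, at resolution 1 and with 0.1 CPM added. No test was made, and the background shares are those of the class given above. Ntng1, a membrane-anchored netrin relative, went from 230 UMIs (69.8 CPM) to 46 (20.3 CPM), a log2 ratio of -1.73 (-2.27 to -1.32). Unc5c, a repulsive netrin receptor, went from 54 UMIs to 14, a ratio of -1.28 (-2.37 to -0.54). The other 3 of 5 netrin and repulsive guidance genes past the filter, Neo1, Rgma and Rgmb, lay between -0.27 and 0.18. Among 14 cytoplasmic effectors, Dpysl3 (a collapsin response mediator that carries semaphorin signals) went from 337 UMIs to 88, a ratio of -1.37 (-1.75 to -1.05). Srgap3, a Slit-Robo GTPase-activating protein, went from 103 UMIs to 24, a ratio of -1.48 (-2.27 to -0.91). The other 12 effectors lay between -0.89 (Mical3) and 0.54 (Chn1), and Ptprz1, the sole adhesion co-receptor past the filter, was at 0.95.

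Outside the RPE-like class 2-fold differences were few, and Sema3c accounted for most of the lower ones. It was lower in the mutant in photoreceptor-like cells, with 65 and 8 UMIs (14.1 and 1.43 CPM), in neurogenic cells, with 62 and 18 UMIs (8.999 and 2.23 CPM), and in progenitor-like cells, with 156 and 46 UMIs (7.54 and 1.82 CPM). With 5 CPM added its log2 ratio was under the call in the latter classes, at -0.95 in neurogenic and -0.88 in progenitor-like cells. Mesenchyme RNA was also lower in these cells of the mutant, as given above. Per 1000 UMIs of Col1a1, a collagen of mesenchyme, Sema3c had 10.1 UMIs in mesenchyme-like cells of the control, and 17.4, 14.7 and 13.5 UMIs in the photoreceptor-like, neurogenic and progenitor-like cells of that library. In the mutant the ratio was 10.6 in mesenchyme-like cells and 12.01, 28.4 and 18.95 in these 3 classes. In RPE-like cells of the control it was 182.5 and in muscle-like cells 234.0. With mesenchyme RNA taken off in proportion to Col1a1, the log2 ratio of Sema3c was -0.71 in progenitor-like cells and -0.69 in neurogenic cells, the latter under the filter. In photoreceptor-like cells it was -2.61 on 27.2 and 0.91 UMIs, too few for the filter, and in RPE-like cells it was again -1.74.

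Other retinal calls were likewise of low counts. Ntn1 in progenitor-like cells had 40 and 10 UMIs (1.93 and 0.396 CPM), at 3.47 UMIs per 1000 of Col1a1 in the control against 2.85 in mesenchyme-like cells. It was not called once mesenchyme RNA was taken off, nor with 5 CPM added (-0.36). Efnb1, a B-class ephrin, had 91 and 47 UMIs in neurogenic cells (13.2 and 5.82 CPM), a log2 ratio of -1.06. It had 21.6 UMIs per 1000 of Col1a1 there in the control against 2.71 in mesenchyme-like cells, and after the subtraction its ratio was -0.95, just under the call. It was also under the call with doublets kept (-0.71), in the mean of cells' CPM (-0.97) and with 5 CPM added (-0.75). Efnb1 lies on the X chromosome, and the pools differed in sex makeup. Within sexes its ratio was -1.625 in cells with Y-linked UMIs only (55 and 4 UMIs). In cells with Xist only it was -1.82 (4 and 35 UMIs, under the filter). Plxnc1, a receptor of Sema7a, had 12 and 40 UMIs in photoreceptor-like cells (2.60 and 7.17 CPM), a ratio of 1.18. It was under the call with doublets kept (0.69 on 20 and 43 UMIs) and with 5 CPM added (0.68), and at 0.40 in cells with Y-linked UMIs only (8 and 2 UMIs). In all, 2 of 49 members passed 2-fold in progenitor-like cells (background 0.899%), 2 of 42 in neurogenic cells (background 0.934%) and 2 of 35 in photoreceptor-like cells (background 1.07%).

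**Figure D4:**
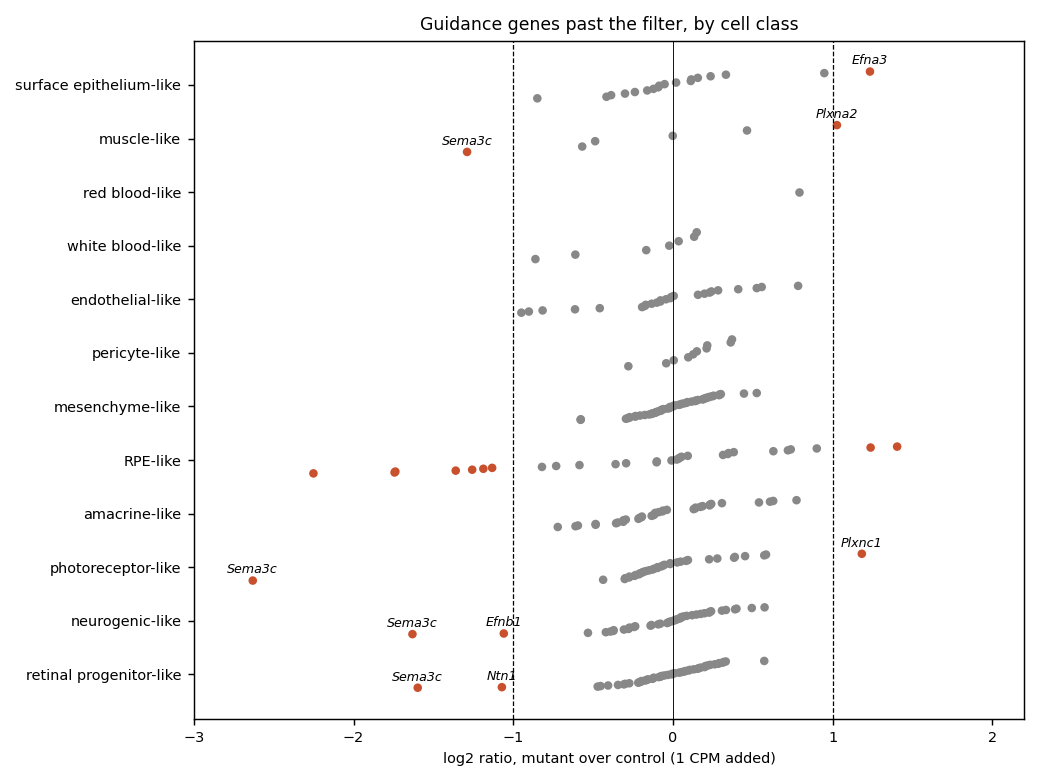
Log2 ratio of mutant over control, with 1 CPM added, of each guidance gene with at least 50 UMIs in a class (1 point per gene, classes on the vertical axis). Points past the dashed 2-fold lines are red and named outside the RPE-like class, which holds 9 of them, 7 lower and 2 higher.

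Across the dorsoventral axis of the retina, the B-class ephrins Efnb1 and Efnb2 were higher dorsally in both genotypes and the receptor Ephb2 was higher ventrally. Progenitor-like cells were called dorsal by a UMI of Tbx5 or Tbx3 and none of Vax2, and ventral by a UMI of Vax2 and none of the others. This gave 797 dorsal and 516 ventral cells in the control and 916 and 740 in the mutant, with medians between 4900 and 5111 UMIs. Genes of the axis that did not enter the rule were in place: Aldh1a3, a ventral retinoic acid enzyme, had dorsal over ventral log2 ratios of -1.99 and -2.02 in the control and mutant, and Aldh1a1, its dorsal counterpart, 2.14 and 1.61.

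Efnb2 stood at 98.2 CPM in dorsal and 31.3 CPM in ventral cells of the control and at 112.7 and 28.8 CPM in the mutant. Its log2 ratios were 1.62 (1.31 to 2.00) and 1.93 (1.68 to 2.26). Efnb1 stood at 54.0 and 18.1 CPM in the control and 44.4 and 13.6 CPM in the mutant, with ratios of 1.53 (1.13 to 2.06) and 1.64 (1.29 to 2.16). These were the 2 members of 42 past the filter that were at least 2-fold higher in dorsal cells of both libraries, against 0.118% of all genes tested, and 0 were 2-fold lower in both, against 0.0546%. Ephb2 was on the ventral side at 81.8 CPM against 48.9 CPM in the control and 90.1 against 54.4 CPM in the mutant, with ratios of -0.73 (-1.02 to -0.47) and -0.72 (-0.96 to -0.50).

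The remaining members named for the axis were flatter. The other B-class ephrin past the filter, Efnb3, had ratios of -0.19 (-0.79 to 0.40) and -0.42 (-0.999 to 0.09). Among EphB receptors, Ephb1 had ratios of -0.03 and 0.26 and Ephb3 of -0.23 and -0.45, all with intervals that reach past 0. With Aldh1a1 and Aldh1a3 added to the rule, Ephb3 was at -0.24 (-0.75 to 0.24) in the control. In the mutant it was then at -0.64 (-1.14 to -0.25), on the ventral side. Of the A class, Efna5 had ratios of -0.56 (-1.01 to -0.15) and -0.29 (-0.62 to 0.03), and Efna2 of -0.29 and -0.16. Epha5 was slightly higher dorsally, with ratios of 0.12 and 0.19, and Epha4 had 0.10 and 0.50. Epha7, at under 10 CPM, had -0.15 and -0.33 with wide intervals. Nrp1 passed 2-fold in the control alone, at 1.04 (0.49 to 1.77) against 0.51 (0.03 to 1.08) in the mutant. Robo3 and Sema3e passed it in the mutant alone: Robo3, a divergent Robo receptor, was at 1.13 (0.35 to 2.71) against 0.42 (-0.46 to 1.52) in the control, and Sema3e at -1.10 (-2.80 to -0.29) against -0.60 (-2.19 to 0.58). These intervals overlap and the differences between the libraries were not tested. With Aldh1a1 and Aldh1a3 added to the rule none of the 3 passed 2-fold: Nrp1 was at 0.73 in the control, and Robo3 and Sema3e at 0.55 and -0.89 in the mutant.

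**Figure D5:**
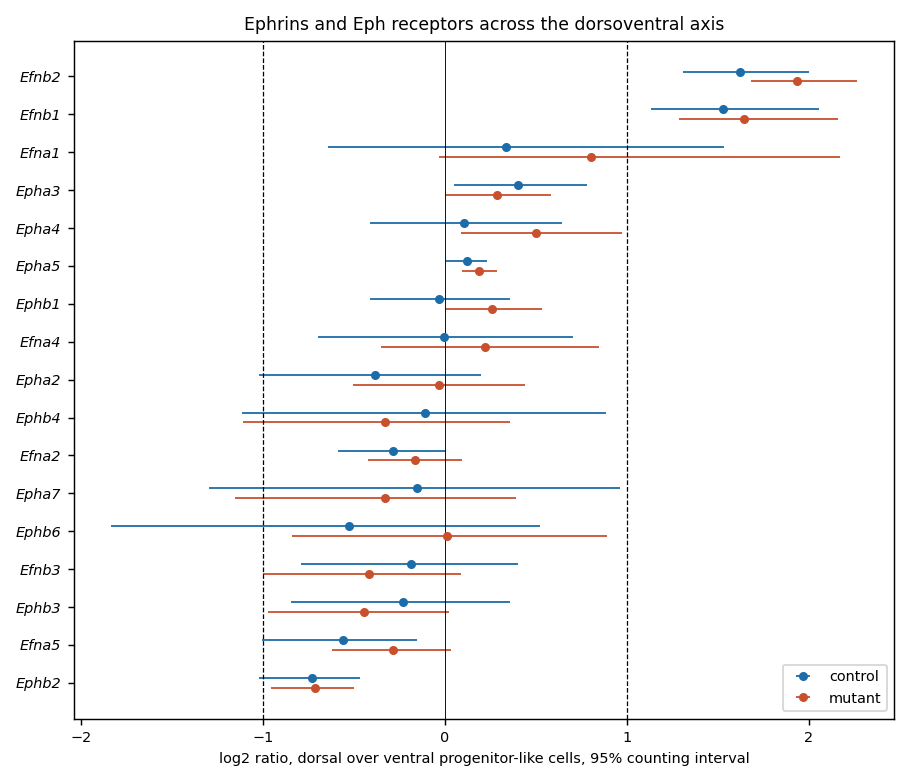
Log2 ratio of dorsal over ventral progenitor-like cells for the 17 ephrins and Eph receptors with at least 50 UMIs, in the control (blue) and mutant pool (red), with 95% counting intervals. Efnb1 and Efnb2 lie past the dashed 2-fold line on the dorsal side in both pools, and Ephb2 lies on the ventral side.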

How the data were processed

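Whole eye cups of 1 control and 1 mutant pool were profiled by 3′ single-cell RNA sequencing. The deposited values are UMI counts, not normalized, which the authors made with Cell Ranger 7.1.0 and Seurat 4.1.1 on mm10 per the submitters' processing notes; the matrix header gives software version 3.1.0, and the annotation is not given in the sources used here. Cells with at least 200 detected genes and at most 15% mitochondrial UMIs were kept. Scrublet's own threshold marked 0.0% of control barcodes, so barcodes at or above the score that marks the expected share (11.4% and 9.78%) were removed, ties included (1682 and 1230, or 11.9% and 10.2%). The upper limit of 2000 UMIs stated for the study was not applied, since 80.2% and 92.1% of cells exceed it. Seurat 5.3.0 (R 4.3.3; 30 components, Louvain resolution 2) clustered 1963 genes, without the guidance genes, and clusters were named from marker lists. The limits used in naming were set with the clusters in view, and a difference from the study may come from rebuilt names. UMIs were summed per class and library and given as CPM (Python 3). Without replicates a call meant a log2 ratio of at least 1 (1 CPM added) among genes with at least 50 UMIs. The intervals were checked on simulated Poisson counts. Those hold no spread between cells, animals or pools, so the check bears on counting error only. Genes named were those past 2-fold in RPE-like cells or in at least 3 classes, the 3 leading each class, and genes with known roles in the eye or vessels. The members and lists were chosen with earlier results of these data known. With 1 library per genotype no replicate block could be fitted. Alternatives covered clustering, doublets, mitochondrial and depth limits, scaling, added CPM, filters and sex, and 4 were chosen after seeing the data.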

Additional observations from a re-analysis of the deposited data

Results flagged for a closer look

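Some members lower in mutant RPE-like cells were higher in the mutant in another class, with a counting interval above 0; the difference between classes was not tested. Sema3c had a log2 ratio of 0.30 in mesenchyme-like cells against -1.74 in RPE-like cells. Nrp2 had 0.56 in endothelial-like and 0.16 in mesenchyme-like cells against -1.36. Both of these classes were made up differently in the pools: of 1938 control and 897 mutant mesenchyme-like cells, a shallow cluster held 578 and 26, and of 433 and 166 endothelial-like cells another held 213 and 27. The clusters of the mesenchyme-like class did not move alike, Sema3c being at 439.1 and 527.9 CPM in the one led by Mfap5 and at 47.5 and 5.95 CPM in the one led by Col10a1. In the deep endothelial-like cluster Nrp2 was at 129.8 and 189.2 CPM. Sema4a had 0.31 in retinal progenitor-like cells against -2.25, and Efna2 had 0.24 in amacrine-like cells against -1.74.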

How the results depend on the processing

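As reported, 7 members were lower and 2 higher in mutant RPE-like cells, 9 calls were made in other classes, 50 members kept their leading class, and 4 partner genes were lower and 0 higher. Settings that leave fewer cells or UMIs let fewer members pass the filter. With at most 2000 UMIs per cell 2 members passed it in RPE-like cells: 0 were lower, 0 higher, 0 were called elsewhere, 10 kept their leading class, 0 partner genes were lower, and the Robo2 ratio was -0.30 on 7 and 1 UMIs. With cells thinned to 1000 UMIs 3 passed, with 2 lower (Sema3b and Sema3c), 0 higher, 5 elsewhere and 1 partner gene lower. At most 5% mitochondrial UMIs gave 4 lower, 1 higher and 2 partner genes lower. A filter of 100 UMIs gave 4 lower and 3 elsewhere, and one of 20 UMIs gave 4 higher and 20 elsewhere. Cells with Xist only gave 4 lower, 31 elsewhere and 2 partner genes lower, and cells with Y-linked UMIs only gave 0 higher and 14 elsewhere. The mean of cells' CPM gave 17 calls elsewhere and 1 partner gene higher, and 5 CPM added gave 3 elsewhere; the cause was not tested. Resolution 1 and 0.1 CPM added each gave 1 partner gene higher, and keeping doublets gave 2 partner genes lower. Of the settings chosen after seeing the data, the shallow RPE-like cluster gave 3 lower, 0 higher, and 2 partner genes lower with 1 higher, and taking off mesenchyme RNA gave 4 calls elsewhere. The dorsoventral count of 2 was the same in both alternatives. Of 17 settings, 3 cannot change a ratio in RPE-like cells (both other filters and the dropped mesenchyme-like cluster). Over the other 14, Sema3c and Sema4a were at least 2-fold lower in all, Efna2 in 13, Sema3b in 12, Sema6d in 11, and Nrp2 and Epha8 in 9 each, while Slit2 was at least 2-fold higher in 12 and Robo2 in 9. Counting just the settings with at least 50 UMIs, these were 13 of 13 for Sema3c, 7 of 7 for Sema4a, 12 of 12 for Efna2, 12 of 14 for Sema3b, 9 of 10 for Sema6d, 5 of 6 for Nrp2, 5 of 7 for Epha8, and 8 of 9 each for Slit2 and Robo2. Sema4a had no UMI in the mutant in 3 settings. No paired analysis was possible because there was 1 library per genotype. Depth limited which members were compared: 30 of the 66 had at least 50 UMIs in RPE-like cells, and between 1 (red blood-like) and 51 (mesenchyme-like) in the other classes.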

Other observations

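Classes with under 50 cells in a library were left out of the comparisons but held guidance genes of their own. In melanocyte-like cells (30 control and 18 mutant cells), the pigment cells of neural crest origin, Plxnc1, the receptor of Sema7a, stood at 122.5 and 127.3 CPM in the control and mutant, and Nrp2 at 103.0 and 142.4 CPM. Sema3b was lower there than in RPE-like cells, at 47.9 and 39.4 CPM. In astrocyte-like cells (31 and 33 cells), which enter the retina along the optic nerve, Sema6d stood at 158.6 and 117.4 CPM, above every class compared, and Sema5a at 103.3 and 160.8 CPM. Slit2 was also counted there, at 38.4 and 24.1 CPM.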
